A study of Mus musculus with 6 samples.

Results

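Among 4107 genes measured well enough in hippocampal microglia, 189 kept 3 libraries apart from the other 3, with a lowest level on one side at least 1.5 times the highest on the other. The 3 libraries with the higher levels were NS (mice that were not shocked), Dep24 (helpless in the acute paradigm) and NR4w (chronic paradigm, not recovered). Those with the lower levels were ND24 (not helpless in the acute paradigm), ND4w (not helpless in the chronic paradigm) and R4w (chronic paradigm, helpless at first and later not). The members were chosen from the microglial UMIs (unique molecules counted) of each library, summed over cells and scaled to CPM (counts per 1000000 UMIs), with 2 CPM added. A gene entered with at least 50 CPM and 30 UMIs in a library. A member's gap is its lowest padded level in NS, Dep24 and NR4w divided by its highest in ND24, ND4w and R4w. Names beginning with mt-, Rpl, Rps or Gm, names ending in Rik, symbols counted in only 1 of the batch sets and 2 further genes were left out by the rule. This removed 355 of the 4462 genes past the level filter, 4 of which met the fold. The members made up 4.60% of the genes tested, and the mirror rule, with the 3 lower libraries on top, found 1 gene, or 0.0243%. Because the microglial sums chose the members, their levels there are a description and carry no test.

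The study put mice of the strain given as BC57BL/6 through learned helplessness, a paradigm of uncontrollable stress. Shocked mice received 180 inescapable shocks at 0.3 mA before 30 trials of 24 s in which escape was tested, and mice of the chronic paradigm were retested weekly for 3 weeks. Live CD45-positive cells (CD45 is a surface protein of leukocytes) were sorted from hippocampi freed of meninges and choroid plexus, and their RNA was read cell by cell from the 5' end in droplets. Each group was 1 library, so values have counting intervals only and no test between groups was possible. The number of animals behind a library is not stated. Dep24 was labelled batch 1, ND24 batch 2, and ND4w, NR4w and R4w batch 3, while NS cells were split between batches 2 and 3. Batch 3 of NS entered the rule, and batch 2 did not. What a batch number stands for is not stated in the labels. The split into higher and lower libraries ran through batch 3, which held NS and NR4w on the high side and ND4w and R4w on the low side. Batch 1 held Dep24 alone, so no value within it could be compared.

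Microglia are the resident macrophages of the brain parenchyma. They survey synapses, take up debris through the endosome and lysosome, and move by remodelling actin under small GTPases, the molecular switches that cycle between a GTP-bound and a GDP-bound state. In 5' single-cell sequencing the read begins near the capped start of the transcript, so a gene is counted through its first bases. Those bases are often rich in G and C where the promoter is a CpG island.

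The microglial sums ranged from 303934 UMIs in 99 NR4w cells to 2711534 UMIs in 630 Dep24 cells, and NS batch 2 had 174450 UMIs in 123 cells. The 9 markers of microglia, such as P2ry12 and Tmem119, were all detected in every library, at a summed level between 31138 and 45255 CPM. No member was among the markers of the 12 cell types checked. In NR4w, neutrophil markers summed to 22502 CPM, against 0 to 1000 CPM in the other libraries and NS batch 2. Leaving out the 2 NR4w and 1 ND4w barcodes in which neutrophil markers took 1% of UMIs or more lowered this to 90.9 CPM in NR4w and 21.8 CPM in ND4w. The rule then found 192 genes, 186 of them members. Monocyte markers reached 888 CPM in NR4w and at most 22.9 CPM elsewhere. Summed levels of neuronal markers were at most 1.76 CPM. Across all cells, 5 barcodes occurred in more than 1 library, in 10 cells.

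Ctbp1 had the largest gap of all members. It encodes a transcriptional corepressor and lies on chromosome 5 from 33247723 to 33274994 (GRCm38, the build named mm10 in the submitters' processing notes). Its level was 105 CPM in NS, 117 CPM in Dep24 and 105 CPM in NR4w, against 11 CPM in ND24, 11.7 CPM in ND4w and 7.53 CPM in R4w. These rest on 179, 316 and 32 UMIs in the former and 25, 25 and 13 in the latter. The lowest of the higher libraries was 8.98 times the highest of the lower ones (95% interval for counting error 5.15 to 15.8). The next largest gaps belonged to Btbd1, which encodes a BTB-domain protein, and to Smap1, an activator of the GTPase activity of ARF proteins in endocytosis. Btbd1 had 102 to 148 CPM in the former libraries and 8.11 to 13.7 CPM in the latter. Smap1 had 138 to 184 CPM against 18.3 to 22.5 CPM.

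Rnf130, a ubiquitin ligase of the RING finger type on chromosome 11 from 50025346 to 50104758, had 271 CPM in NS, 294 CPM in Dep24 and 224 CPM in NR4w. In ND24, ND4w and R4w it had 39.7, 40.3 and 42.9 CPM. Bri3, a small membrane protein of the lysosome on chromosome 5 from 144244437 to 144446757, had 232, 304 and 178 CPM in NS, Dep24 and NR4w and 34.4, 14.5 and 20.8 CPM in ND24, ND4w and R4w. Lamp1, a main glycoprotein of the lysosomal membrane on chromosome 8 from 13159161 to 13175338, had the highest mean level of all members over NS, Dep24 and NR4w. It stood at 1228 CPM in NS, 1411 CPM in Dep24 and 908 CPM in NR4w, against 206 CPM in ND24, 207 CPM in ND4w and 197 CPM in R4w. The groups of libraries did not overlap for any of these genes, which is what the rule asked for. The plot of the 25 members with the largest gap shows the sides apart. These genes were picked by that gap, so a spread within each side smaller than the distance between the sides follows from the choice.

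**Figure D1:**
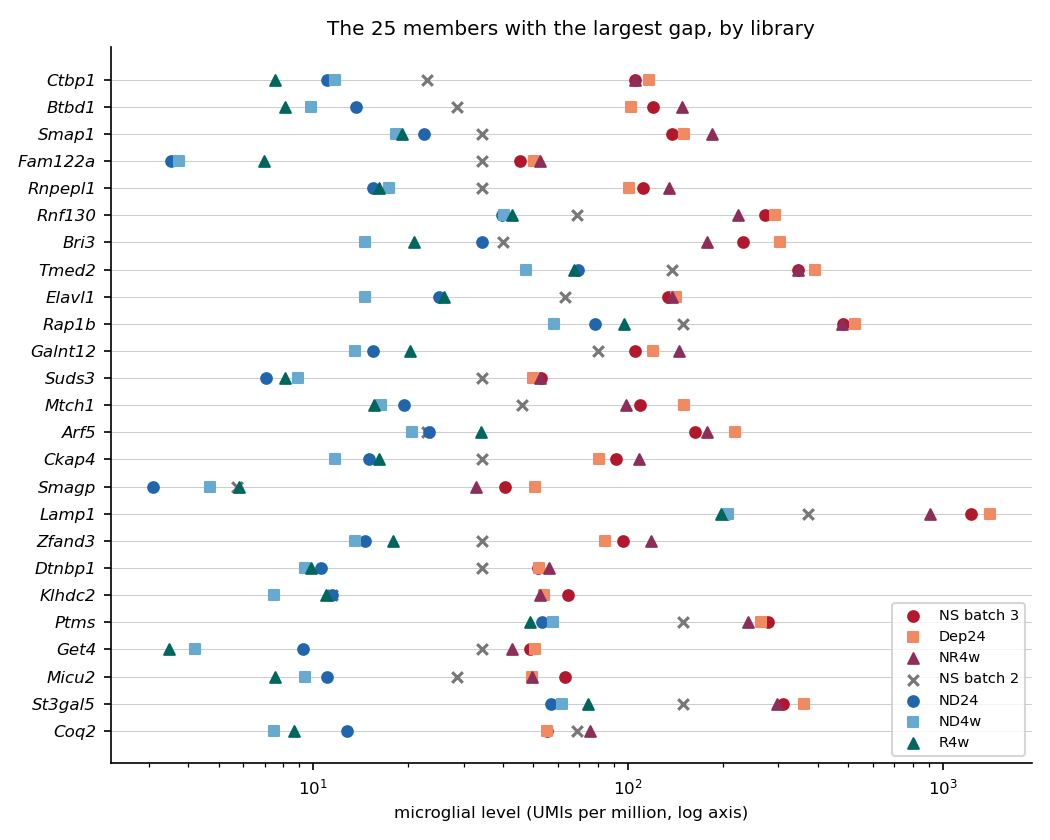
Microglial level (CPM, log axis) of the 25 members with the largest gap, 1 row per gene, 1 point per library and a cross for NS batch 2, which the rule did not use. The red, orange and purple points (NS batch 3, Dep24, NR4w) lie together on the right and the blue and green points (ND24, ND4w, R4w) together on the left. Ctbp1, at the top, stands at 105 to 117 CPM against 7.53 to 11.7 CPM.

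Upstream sequences of 5 members and of Lamp2, the near relative of Lamp1 that is no member, are shown because the start of the gene is what the members shared outside the rule, as described below. Each is the stretch of 100 bases before the transcription start in RefSeq (GRCm38.p6), 5' to 3' on the gene's strand, with every CG dinucleotide in capitals, and no annotated exon overlaps it. Ctbp1 is chr5:33275005-33275104 on the minus strand, Rnf130 is chr11:50025231-50025330 on the plus strand and Bri3 is chr5:144255125-144255224 on the plus strand, inside the span GENCODE gives the gene. Smap1 is chr1:23922382-23922481 on the minus strand, Lamp1 is chr8:13159061-13159160 on the plus strand and Lamp2 is chrX:38456461-38456560 on the minus strand.
Ctbp1: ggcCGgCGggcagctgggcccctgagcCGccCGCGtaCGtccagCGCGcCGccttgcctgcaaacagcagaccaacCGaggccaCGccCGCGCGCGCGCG
Rnf130: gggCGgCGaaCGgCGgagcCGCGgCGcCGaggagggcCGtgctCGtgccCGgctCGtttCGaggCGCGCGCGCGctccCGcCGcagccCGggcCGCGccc
Bri3: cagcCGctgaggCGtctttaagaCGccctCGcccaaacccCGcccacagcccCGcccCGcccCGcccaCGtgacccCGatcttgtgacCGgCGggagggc
Smap1: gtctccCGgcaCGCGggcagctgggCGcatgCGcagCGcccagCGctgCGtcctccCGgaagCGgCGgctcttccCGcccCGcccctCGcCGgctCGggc
Lamp1: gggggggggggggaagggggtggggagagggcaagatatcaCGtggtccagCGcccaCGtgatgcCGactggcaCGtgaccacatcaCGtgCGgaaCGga
Lamp2: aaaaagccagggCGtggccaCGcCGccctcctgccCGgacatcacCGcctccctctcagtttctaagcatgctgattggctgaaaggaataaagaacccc
The stretches hold 17 CG dinucleotides in Ctbp1, 23 in Rnf130, 12 in Bri3, 16 in Smap1 and 8 in Lamp1, against 5 in Lamp2. Their G and C content was 79%, 85%, 74%, 81% and 68% in the members and 58% in Lamp2. The genes shown were picked as examples. Over all promoters compared below, the 250 bases before the start had a median of 23 CG dinucleotides in members and 17 in the others.

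Over all 189 members the gap ran from 1.5 to 7.81 with a median of 2.23. It was at least 2 in 112 members, at least 3 in 43 and at least 4 in 21. The ratio of the mean padded levels of the 2 sides ran from 1.84 to 9.99 with a median of 3.34. Within a side the libraries lay closer. The median ratio of the highest to the lowest library was 1.40 among NS, Dep24 and NR4w and 1.37 among ND24, ND4w and R4w. On the log2 scale the median gap was 1.16 over the members and -0.46 over all genes tested. The 95% counting interval of the ratio that sets the gap lay above 1 in 178 members and included 1 in 11. Members were chosen by the padded form of this ratio, so these counts follow largely from the choice and carry no test. NR4w limited the precision, since its members had 4 to 311 UMIs there with a median of 29. At the threshold, the last inside included Bmp2k and Tmem160, with gaps of 1.502 and 1.503. Just outside were Tmem260 and Atp8a1, both at 1.498, and Arhgap39 at 1.492.

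A minority of members differed inside the high side. In 16 members NS and NR4w both stood at least 1.5 times above Dep24. Plk3, a stress-activated kinase, had 77.7 CPM in NS and 62.5 CPM in NR4w but 27.3 CPM in Dep24. Dock8, which activates the small GTPase CDC42, had 336, 526 and 206 CPM in NS, NR4w and Dep24. In 7 members Dep24 stood at least 1.5 times above both. How many of all genes tested showed either pattern was not counted, so nothing particular to the members follows from these counts. Rac3 had 57.2 CPM in Dep24, 27.7 CPM in NS and 32.9 CPM in NR4w, and Ogfrl1 had 258, 150 and 145 CPM. These genes still had lower levels in ND24, ND4w and R4w, for example 5.73, 4.22 and 4.05 CPM for Rac3.

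By function the members were spread widely. They fell in 14 of the 22 gene lists used, and 113 of the 189 were in no list. The counts per list are set beside the 4.60% over all genes tested, and no test of a list was made. Small GTPases and their regulators held 10 members among 99 genes tested (10.1%). Ubiquitin and proteasome genes held 14 of 162 (8.64%), lysosome and phagocytosis genes 6 of 82 (7.32%) and kinase and phosphatase genes 8 of 113 (7.08%). Splicing and RNA processing genes held 8 of 132 (6.06%), transporters and channels 6 of 101 (5.94%), G protein signalling genes 3 of 53 (5.66%) and sequence-specific transcription factors 7 of 132 (5.30%). Near or under the share of all genes were corepressors and chromatin genes with 4 of 92 (4.35%), cytokines, chemokines and their receptors with 2 of 49 (4.08%) and ER, Golgi and vesicle traffic genes with 7 of 192 (3.65%). Heat shock genes held 1 of 45, lipid and cholesterol genes 1 of 66 and actin and adhesion genes 1 of 85. Some members fit the name of their list only loosely. Bmp2k, counted with cytokines and receptors, encodes a kinase, and Trpc4ap, counted with channels, a protein associated with a channel. Ssbp4, counted with sequence-specific transcription factors, encodes a single-stranded DNA-binding protein.

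The remaining 8 lists held no member. Over all genes tested 4.60% were members, so each list of this size would hold few. Whether the 8 lists together held fewer than that share was not tested. They covered the genes most used to describe the state of microglia: 41 homeostatic genes, 29 genes of MHC presentation, 44 of complement, Fc and innate surface receptors, 49 of TLR and NF-kB signalling and 25 immediate early genes. The others were 81 nuclear genes of mitochondrial respiration, 68 of translation and 55 of apoptosis, cell cycle and DNA damage. Median log2 gaps in these lists ran from -0.90 for immediate early genes to -0.45 for complement, Fc and innate surface receptors, beside -0.46 for all genes tested. No mitochondrial or ribosomal protein name met the fold among the 107 that passed the level filter.

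Among small GTPases, which switch membrane traffic and the cytoskeleton, Rap1b and Rac1 had the highest levels. Rap1b, which acts on integrin adhesion, had 480, 524 and 477 CPM in NS, Dep24 and NR4w and 78.5, 58.2 and 97.3 CPM in ND24, ND4w and R4w. Its ratio was 4.90 (3.9 to 6.16). Rac1, which drives actin protrusion, had 545, 662 and 559 CPM against 226, 184 and 198 CPM. Arf5, an ARF protein of the Golgi, had 162, 219 and 178 CPM against 23.4, 20.6 and 34.2 CPM. Rab35, which acts in endosome recycling, had 115, 140 and 135 CPM against 34.8, 31.4 and 34.2 CPM. Each of these genes was separated in the same way, with ratios from 2.41 for Rac1 to 4.90 for Rap1b.

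Close relatives of these genes were mostly not members. In families chosen after the members were known, 17 families held members and others, with 84 genes that were no member. Being no member was also usual among all genes tested, of which 4.60% were members, so nothing particular to the relatives follows from this count. Rap1a had 293, 315 and 243 CPM in NS, Dep24 and NR4w and 271, 257 and 314 CPM in ND24, ND4w and R4w, so that the sides overlapped. Rac2 overlapped as well, with 157, 188 and 283 CPM against 184, 208 and 199 CPM. Among ARF genes, Arf1, Arf2, Arf4 and Arf6 were no members, with gaps between 0.685 and 1.08. The treatment of reads shared by near-identical copies is not stated.

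Pairs of related genes parted likewise outside the GTPases. Lamp2 had 504, 359 and 408 CPM in NS, Dep24 and NR4w and 467, 555 and 552 CPM in ND24, ND4w and R4w, whereas the 2 sides of Lamp1 were 4.39 times apart (3.76 to 5.11). Ctbp2 had 97.1, 94.4 and 85.5 CPM against 91.7, 60.5 and 78.8 CPM, without the separation of Ctbp1. Tmed2, a cargo receptor of vesicles between ER and Golgi, had 346, 393 and 345 CPM against 69.2, 47.4 and 67.2 CPM, while the other 6 TMED genes tested had gaps of at most 0.871. Of the 3 catalytic subunits of protein phosphatase 1 only Ppp1cc was a member, with 235, 253 and 184 CPM against 74.5, 43.2 and 79.3 CPM, and its gap of 2.29 was 1.38 in cells thinned to 1000 UMIs. Of the 3 calmodulin genes, which encode one protein sequence, only Calm3 was, with 56.5, 80.4 and 75.7 CPM against 36.6, 20.6 and 35.9 CPM. Calm2 had 665, 895 and 625 CPM against 944, 779 and 863 CPM. In the polypeptide GalNAc-transferases, which begin O-linked glycans, all 3 genes tested (Galnt1, Galnt11 and Galnt12) were members, as were both poly(C)-binding proteins tested, Pcbp1 and Pcbp2. All these families were chosen after the members were known, and 4.60% of all genes tested were members, so their counts are descriptions.

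Lysosomal members besides Lamp1 and Bri3 included Plbd2, Mcoln1 and Rnaset2b. Mcoln1, the calcium channel of the lysosome, had 68.9, 52.7 and 62.5 CPM in NS, Dep24 and NR4w and 24.7, 22.5 and 26.1 CPM in ND24, ND4w and R4w, and its gap of 1.95 was 1.07 in cells thinned to 1000 UMIs. In the surface and adhesion group the integrin subunit gene Itgb5 had a mean over NS, Dep24 and NR4w second to Lamp1, and a higher level than Lamp1 in each of ND24, ND4w and R4w. It had 1018, 1346 and 1017 CPM against 574, 426 and 372 CPM, a ratio of 1.77 (1.56 to 2.01), and its gap fell to 1.48, under the threshold, with median-of-ratios size factors. Orai1, the store-operated calcium channel, had 304, 340 and 214 CPM against 94.8, 54.9 and 70.1 CPM.

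Ubiquitin genes were the largest list among members. They included the RING ligases Rnf130, Rnf187, Rnf149, Rnf166, Rnf103, March2, March5 and Trim8, the conjugating enzymes Ube2d1, Ube2e3 and Ube2j2, the deubiquitinase Otud1, and Ubqln1 and Bag1. Rnf187 had 145, 177 and 138 CPM in NS, Dep24 and NR4w against 35.7, 29.6 and 26.6 CPM. Bag1, a cochaperone of HSP70, had 94.8, 107 and 75.7 CPM against 22.5, 16.4 and 11 CPM. Of the 29 genes with an Rnf name that were tested, 5 were members, beside 4.60% of all genes tested. This family was chosen after the members were known, so the count is a description.

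RNA-binding members had gaps up to 4.83. Elavl1, which stabilises AU-rich mRNAs, had 134, 142 and 138 CPM in NS, Dep24 and NR4w and 25.1, 14.5 and 26.1 CPM in ND24, ND4w and R4w. Pcbp1 had 405, 499 and 362 CPM against 101, 96.2 and 89.8 CPM, and Pcbp2 had 374, 368 and 454 CPM against 110, 116 and 111 CPM. Of the 10 SR splicing factors tested, a family chosen after the members were known, Srsf4, Srsf6 and Srsf9 were members, beside 4.60% of all genes tested. In signalling, Gnas, the stimulatory G protein subunit of adenylyl cyclase, had 481, 452 and 359 CPM against 111, 106 and 122 CPM. Prkaca, the catalytic subunit of the cyclic AMP-dependent kinase, had 48.9, 53.5 and 62.5 CPM against 15.4, 5.16 and 9.27 CPM. Its relative Prkacb, with a gap of 0.747, was no member. Map2k2, a kinase of the ERK cascade, had 193, 178 and 178 CPM against 71.5, 58.6 and 79.3 CPM, and its gap of 2.21 was 1.18 in the thinned cells. Tcf3, the E protein transcription factor, had 63.6, 60.1 and 79.0 CPM against 8.38, 7.04 and 16.2 CPM.

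Some members outside the lists encode enzymes that transfer or activate sugars. They were chosen for mention after their values were seen, and how many such genes were tested was not counted. St3gal5, which makes the ganglioside GM3, had 310, 363 and 296 CPM in NS, Dep24 and NR4w and 56.9, 61.5 and 74.7 CPM in ND24, ND4w and R4w. Galnt12 had 105, 120 and 145 CPM against 15.4, 13.6 and 20.3 CPM. B3gnt2, B3galnt1, St3gal2, Gxylt1, Cmas, Uap1 and Colgalt1 were further members, with gaps from 1.57 for Gxylt1 to 2.21 for B3gnt2. Mitochondrial members included Micu2, a regulator of the calcium uniporter, with 63.0, 49.4 and 49.4 CPM against 11, 9.38 and 7.53 CPM. Coq2, an enzyme of coenzyme Q synthesis, had 55.3, 55.3 and 75.7 CPM against 12.8, 7.51 and 8.69 CPM.

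The members together took up a similar share of microglial UMIs in each of the 3 higher libraries. They summed to 27154 CPM in NS batch 3 (26910 to 27400), 26921 CPM in Dep24 (26729 to 27115) and 28361 CPM in NR4w (27774 to 28958). In ND24 they summed to 8369 CPM (8250 to 8488), in ND4w to 7386 CPM (7272 to 7502) and in R4w to 8361 CPM (8225 to 8498). Within batch 3, the sum in NR4w was 3.39 times that in R4w (3.30 to 3.48) and that in NS was 3.68 times that in ND4w (3.61 to 3.74). These sums follow from the choice of members and carry no test.

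NS batch 2 held the only microglia that the rule did not use, and there the members stood between the sides. Their sum was 18458 CPM (17832 to 19101), which was 2.21 times that of ND24 of the same batch (2.12 to 2.29). The sum in NS batch 3 was 1.47 times that in NS batch 2 (1.42 to 1.53). By gene, 144 of the 189 members were at least 1.5-fold higher in NS batch 2 than in ND24, against 27.6% of all genes tested. Against the highest of ND24, ND4w and R4w, 131 members were at least 1.5-fold higher and 1 (Ywhab) was at least 1.5-fold lower, against 17.6% higher, and 1224 of 4107 lower, among all genes tested. Of the members, 107 lay above all 3 lower libraries and below all 3 higher ones, a position that the rule itself made possible for members and that is a description only. In NS batch 3 over NS batch 2, 94 members were higher by 1.5 times or more and 8 lower, against 22.7% higher, and 683 of 4107 lower, among all genes. The libraries set against NS batch 2 in these ratios and counts were used by the rule. It chose members low in ND24, ND4w and R4w and high in NS batch 3, which the shares over all genes do not reflect. These comparisons are therefore descriptions and carry no test.

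Single members differed in NS batch 2. Ctbp1 and Arf5 each had 22.9 CPM there, from 4 UMIs each, and Bri3 had 40.1 CPM, from 7 UMIs. Arf5 thus lay within the range of its lower libraries, and Ctbp1 and Bri3 above theirs. Lamp1 had 373 CPM and Rap1b 149 CPM, between the sides. Itgb5 had 1146 CPM, Coq2 68.8 CPM and Dip2b 676 CPM, as high as in the higher libraries or above them. NS batch 2 was shallow, with a median of 905 UMIs per microglial cell against 3906 in NS batch 3, and 122 of its 123 microglia belonged to deposited cluster 6. In cluster 6 alone its sum also lay between those of NR4w and R4w, at 18440 CPM against 27233 and 10409 CPM.

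Single microglia separated almost completely by the share of their UMIs in members. The median share was 2.74% in NS batch 3, 2.69% in Dep24 and 2.91% in NR4w, against 0.816% in ND24, 0.700% in ND4w and 0.822% in R4w, and it was 1.79% in NS batch 2. Of the 1158 cells in the higher libraries, 2 lay at or under 1.48%, the highest 95th percentile of a lower library. Of the 1440 cells in the lower libraries, 9 reached 2.18%, the lowest 5th percentile of a higher library. These 9 cells had a median of 1518 UMIs, and 8 of them had under 2.5% ribosomal protein UMIs. With each cell thinned to 1000 UMIs, and cells under 1000 left out, the medians were 2.7%, 2.7% and 2.9% in NS batch 3, Dep24 and NR4w and 0.8%, 0.7% and 0.8% in ND24, ND4w and R4w. The thinned cells numbered 404, 630, 88, 562, 495 and 365 in that order. In NS batch 2 the 56 cells that could be thinned had a median of 1.85%, beside 1.79% unthinned. All these cells but those of NS batch 2 entered the sums that chose the members, so a separation by library follows from that choice. Cells of a library are also not replicates, so these are descriptions.

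**Figure D2:**
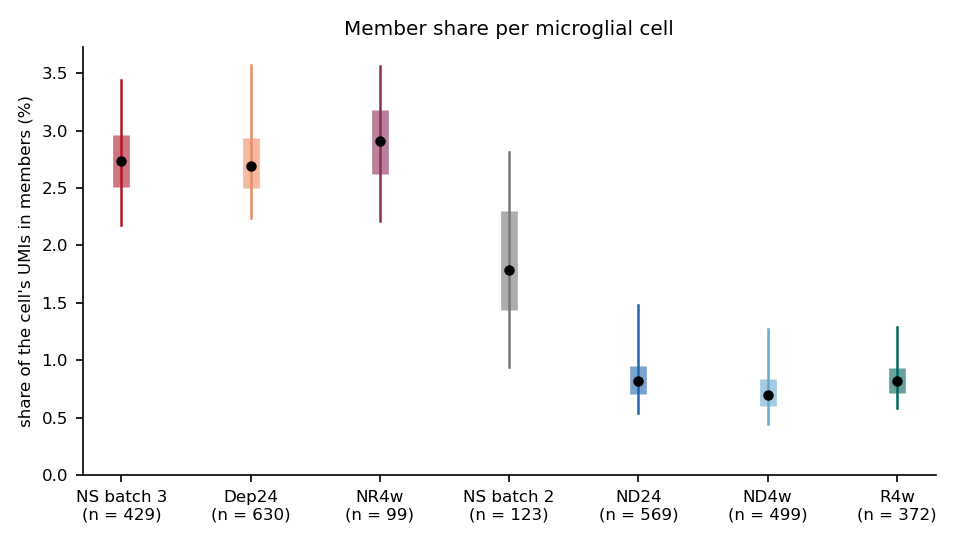
Share of each microglial cell's UMIs that fell in the 189 members, by library (n cells under each name). Black points are medians, thick bars run from the 25th to the 75th percentile and thin lines from the 5th to the 95th. Cells of NS batch 3, Dep24 and NR4w have medians of 2.69% to 2.91%, cells of ND24, ND4w and R4w of 0.700% to 0.822%, and NS batch 2 lies between at 1.79%. All cells but those of NS batch 2 entered the rule that chose the members.

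The separation appeared in each deposited microglial cluster that could be compared, as the plot by cluster shows. These cells also entered the rule. In cluster 1 the members' sum in Dep24 was 3.23 times that in ND24 (3.16 to 3.30), and 185 of 189 members were at least 1.5-fold higher, beside 9.16% of all genes tested. Also in cluster 1, NS batch 3 was 3.55 times ND4w (3.44 to 3.66) with 183 members higher beside 12%, and NR4w was 3.81 times ND4w (3.66 to 3.97) with 185 members higher beside 16%. In cluster 2, Dep24 was 3.26 times ND24 (3.16 to 3.37) with 177 members higher beside 10%, and 3.15 times R4w (3.08 to 3.21) with 178 higher beside 7.48%. Cluster 3 gave smaller ratios. There Dep24 was 2.42 times ND24 (2.3 to 2.53) with 154 members higher beside 17.8%, and NS batch 3 was 2.57 times ND4w (2.45 to 2.69) with 168 higher beside 17.1%. In cluster 6, NR4w was 2.62 times R4w (2.44 to 2.81) with 157 members higher beside 22.5%. NS batch 2, which the rule did not use, was 1.77 times R4w there (1.65 to 1.90), with 122 members at least 1.5 times higher and 12 at least 1.5 times lower beside 22% higher of all genes. The rule did use R4w, where members were chosen to be low.

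**Figure D3:**
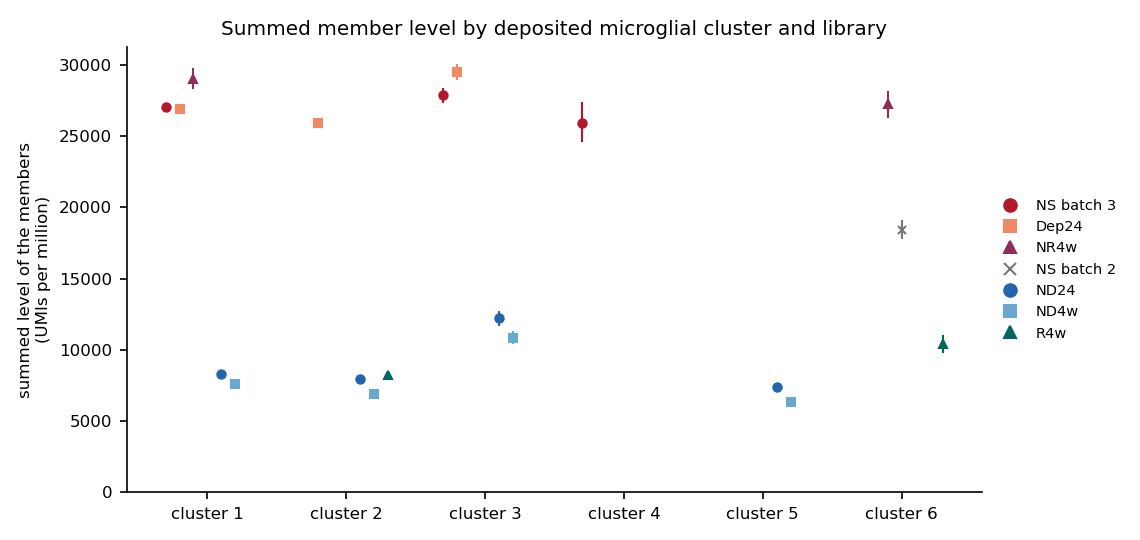
Summed level of the 189 members (CPM) in each deposited microglial cluster and library with at least 20 cells; bars are exact 95% intervals for counting error. In clusters 1, 2, 3 and 6, which hold both sides, the red, orange and purple points stand above the blue and green ones. Over all 6 clusters the former lie at 25897 to 29502 CPM and the latter at 6374 to 12212 CPM, with NS batch 2 between them in cluster 6.

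Clusters 3 and 6 held the microglia poor in ribosomal protein RNA, with median shares from 0.904% to 1.76% of UMIs, and in these clusters the lower libraries had their highest sums. In the lower libraries the members' sum was higher in cells with under 2.5% ribosomal protein UMIs than in the rest. It was 13525 against 8174 CPM in ND24, a ratio of 1.65 (1.56 to 1.76), 10065 against 7162 CPM in ND4w, a ratio of 1.41 (1.33 to 1.48), and 9999 against 8290 CPM in R4w, a ratio of 1.21 (1.12 to 1.30). In the higher libraries the same ratio was 1.04 in NS batch 3 (1.01 to 1.06), 1.21 in Dep24 (1.17 to 1.24) and 1.06 in NR4w (1.01 to 1.11). Cells with at least 2.5% numbered 284, 530 and 47 in NS batch 3, Dep24 and NR4w and 519, 421 and 337 in ND24, ND4w and R4w. Over these cells alone the members' sums were 26957, 26591 and 27876 CPM in the former and 8174, 7162 and 8290 CPM in the latter.

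Other leukocytes, which the rule did not use, showed the same order. In T cell barcodes the members summed to 23137 CPM in NS batch 3 (22466 to 23823, 15 barcodes), 20228 CPM in Dep24 (19725 to 20740, 30 barcodes) and 21389 CPM in NR4w (20514 to 22291, 15 barcodes). They summed to 7483 CPM in ND24 (7009 to 7981, 9 barcodes), 7558 CPM in ND4w (7270 to 7854, 25 barcodes) and 8917 CPM in R4w (8746 to 9091, 63 barcodes). Dep24 was 2.70 times ND24 (2.52 to 2.90), NR4w 2.40 times R4w (2.29 to 2.51) and NS batch 3 3.06 times ND4w (2.92 to 3.22). The 4 T cell barcodes of NS batch 2 again lay between, at 12542 CPM (11173 to 14032).

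Of the 184 members with at least 30 UMIs over all T cell barcodes, 148 were at least 1.5-fold higher in Dep24 than in ND24 and none was that much lower, beside 20.2% higher of the 4092 genes so measured. In NR4w over R4w 136 were higher and 11 lower, beside 16.5%, and in NS batch 3 over ND4w 166 were higher and none lower, beside 16.9%. The median log2 ratios over members were 1.32, 1.12 and 1.54, against -0.05, -0.14 and -0.03 over all genes. Pcbp2 in T cells had 426 CPM in NS batch 3, 514 CPM in Dep24 and 777 CPM in NR4w, against 122 CPM in ND24, 115 CPM in ND4w and 148 CPM in R4w. Limd2, which encodes a LIM-domain protein, had 789, 1011 and 583 CPM against 163, 197 and 238 CPM. For Itgb5 the sides overlapped in T cells, with 340 CPM in NR4w and 417 CPM in R4w.

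Most T cell barcodes held UMIs of microglial markers, and 43 of 161 had under 0.5% of their UMIs in the 9 microglial markers. In those 43 the members summed to 17782, 13847 and 18352 CPM in NS batch 3, Dep24 and NR4w and to 5366, 4069 and 6297 CPM in ND24, ND4w and R4w. The ratio was then 2.58 for Dep24 over ND24 (1.73 to 4.04), which rests on 1 ND24 barcode, 2.91 for NR4w over R4w (2.57 to 3.31) and 4.37 for NS batch 3 over ND4w (3.52 to 5.45). Over all cells other than microglia with so few microglial marker UMIs, the sums were 19360, 15480 and 17728 CPM against 5270, 5050 and 5727 CPM.

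NK cells, monocytes, macrophages and B cells had 1 to 16 barcodes per library, and in each type the 3 higher libraries stood above the 3 lower ones. In NK cells the members summed to 21903, 20020 and 19382 CPM in NS batch 3, Dep24 and NR4w and to 6781, 6376 and 7356 CPM in ND24, ND4w and R4w. Macrophages had 17876, 17352 and 19866 CPM against 7158, 4194 and 7321 CPM, and B cells 25000, 17512 and 21038 CPM against 3524, 3768 and 5112 CPM. The narrowest distance was in monocytes, where the single NR4w barcode gave 12873 CPM (10561 to 15535) and R4w 7827 CPM (7402 to 8270), a ratio of 1.64 (1.34 to 2.00).

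**Figure D4:**
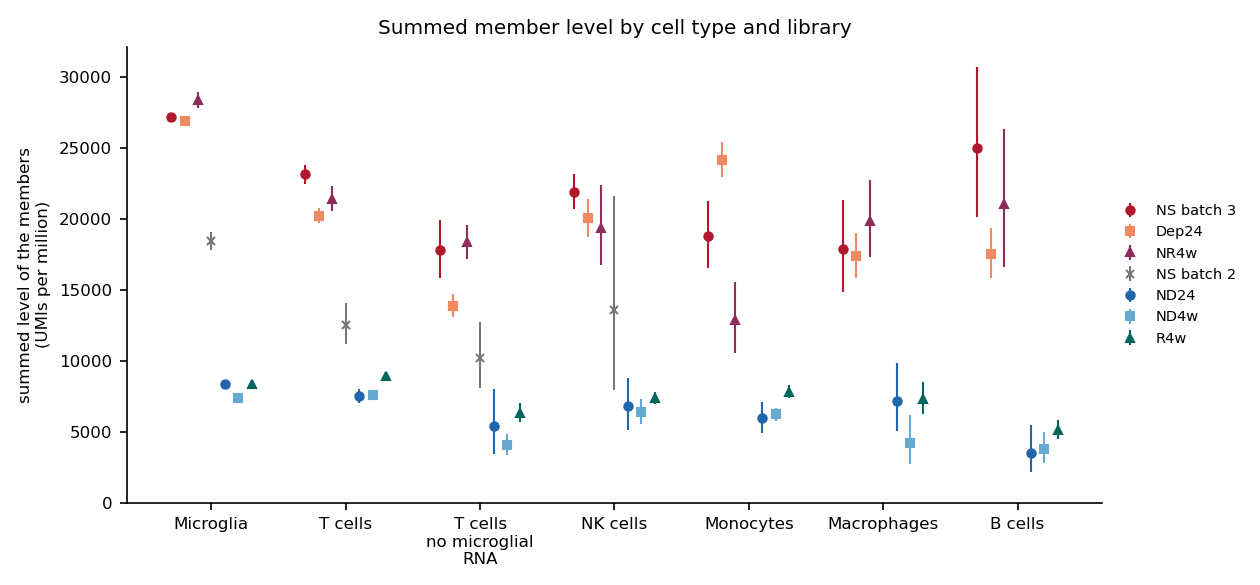
Summed level of the 189 members (CPM) by deposited cell type and library, with exact 95% intervals for counting error. The third position, labelled no microglial RNA, shows T cell barcodes with under 0.5% of UMIs in microglial markers, which may still hold some. In each type NS batch 3, Dep24 and NR4w lie above ND24, ND4w and R4w, and NS batch 2 lies between them where it has barcodes.

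Outside the rule, the members shared a GC-rich transcript start. Of the 189, 187 matched a GENCODE M21 transcript by symbol. The first 100 transcript bases had a median GC content of 78% in members (quartiles 73% and 81%) and of 66% in the 3898 other genes tested (59% and 72%). When genes were sorted by this value into 5 groups of equal size, members made up 1.22%, 0.857%, 1.22%, 3.06% and 16.5% from the lowest group to the highest (exact 95% interval of the last 14% to 19.3%). In the highest of 20 such groups, from 80% to 90% GC, 60 of 205 genes were members (29.3%, 23.1% to 36.0%). Over the first 200 bases the medians were 77% and 64%, and over the first 400 bases 69.2% and 59%. At the other end of the transcript the members did not stand apart, with a median GC content of 40% in the last 200 bases against 40.5%. Transcript length was also close, with a median of 2881 against 2804 bases. Over 5 groups sorted by GC content, the share of members for the last 200 bases ran from 4.16% to 5.14%.

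**Figure D5:**
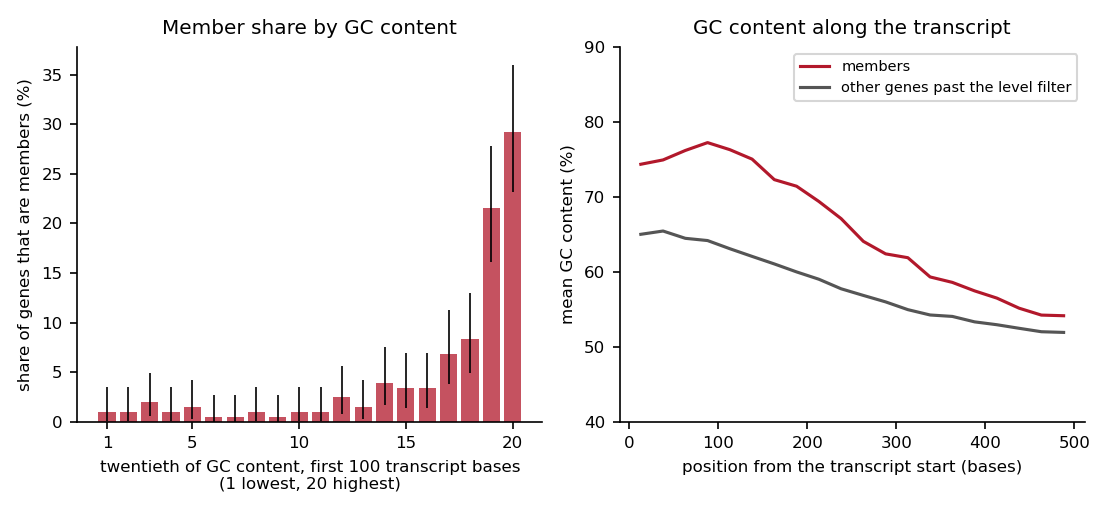
Left, share of genes tested that were members, in 20 equal groups by the GC content of the first 100 transcript bases, with exact 95% intervals; it stays at or under 3.92% up to group 16 and reaches 29.3% in the last. Right, mean GC content in windows of 25 bases over the first 500 bases, for 187 members and 3880 other genes; members lie at 77.2% against 64.2% at bases 76 to 100 and at 54.1% against 51.9% at the end.

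GC content did not mark all members, nor did members exhaust GC-rich genes. Of the 187 members, 135 were in the highest of the 5 groups and 52 below it, and the median gap was 2.25 in the former and 2.22 in the latter. Pcbp2 with 51%, Pcbp1 with 57%, Elavl1 with 59% and Phf3 with 37% GC in the first 100 bases were members. In the highest group 682 genes were no members. Their median log2 difference from the mean of the lower libraries was 0.16 in NS batch 3, 0.02 in Dep24, 0.30 in NR4w and 0.21 in NS batch 2, against -0.02, -0.12, -0.01 and -0.09 for non-members of the lowest group. The same difference was -0.11 in ND24, 0.01 in ND4w and 0.10 in R4w, against -0.06, 0.07 and -0.01 for non-members of the lowest group. R4w, a lower library, thus stood above Dep24 among these GC-rich non-members, but also in the lowest group, at -0.01 against -0.12. From the lowest group to the highest, NS batch 3, Dep24 and NR4w each rose more than R4w, and ND24 and ND4w fell. What lies behind these differences was not tested. In 13 of the 17 families with members and others the members had the higher median GC content. Lamp1 had 70% and Lamp2 64%, and Ctbp1 83% and Ctbp2 70%, while Rap1b had 72% and its non-member relative Rap1a 79%.

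Promoters were compared for the 125 members and 2613 others whose RefSeq start lay within 100 bases of the transcript start. The 250 bases before the start had a median GC content of 67.2% in members and 60% in the others, with 23 and 17 CG dinucleotides. GGGCGG, read on both strands, occurred in 74.4% of member promoters, in 62.7% of those of all genes tested and in 32.7% of all 32851 promoters in the table. TATAAA occurred in 1.6%, 6.17% and 12.4%, and CCAAT in 20% of member promoters, 35.8% of those tested and 33.8% of all. Members lay on 19 chromosomes, from 2 of 132 genes tested on chromosome 12 (1.52%) to 27 of 287 on chromosome 5 (9.41%). None of the 93 genes tested on chromosome X was a member. Over all genes tested the share was 4.60%. These chromosomes were picked for mention after the counts were seen, and no test was made.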

How the data were processed

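The values are the raw UMI counts per gene and cell that the authors deposited for 6 libraries, with their deposited cell types, clusters and batch numbers. Per the labels' protocols, libraries were made with the Chromium 5' kit. The submitters' processing notes name mm10, Cell Ranger 2.2.0 and Seurat 2.3.4. The authors' cell filters and typing steps are not stated, and no doublet caller was run here. Deposited normalized matrices were not used here.

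UMIs were summed per library and cell type and scaled to CPM (Python 3.11.15, scipy 1.17.1). Levels have exact Clopper-Pearson intervals and ratios conditional exact intervals, at 95%, which cover counting error only. The code of the rule was run on simulated counts with set differences. These counts held counting error only, so the run does not show how often libraries part for other reasons. Sequence features came from GENCODE M21 transcripts and RefSeq promoters. Genes named were the 25 members with the largest gap, the 5 with the highest mean level, up to 4 per list, and 3 on either side of the threshold; other named genes were chosen after their values were seen. Members, lists and families were chosen with earlier results of these data known. Some genes this rule names are not reported here.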

Additional observations from a re-analysis of the deposited data

How the results depend on the processing

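The 189 members became 303 with a filter of 10 CPM and 5 UMIs and 93 with 100 CPM and 60 UMIs, and 120, of which 116 were members, with NS taken from batch 2. Under other pseudocounts, scalings, cell weights, cell filters and left-out names they numbered 150 to 195, and 128 of the 150 in thinned cells were members. With 1 library left out they numbered 184 to 251. The median log2 gap of 1.16 was 0.98 with 10 CPM added, 1.01 in thinned cells, 0.74 with NS from batch 2, and 1.16 to 1.32 with 1 library left out. The lowest of the members' sums in the higher libraries was 3.22 times the highest in the lower ones. This was 2.83 with median-of-ratios size factors, 3.13 without mitochondrial and ribosomal protein genes in the totals, 3.16 with cells weighted equally, 3.15 with NS from both batches, 2.21 with NS from batch 2, and 3.22 to 3.24 with 1 library left out. For NS batch 2 the ratio to the highest lower library, 2.21, was 1.85, 2.11 and 2.12 under the first 3 of these. In T cells NR4w over R4w was 2.91 in barcodes with under 0.5% microglial marker UMIs, which may still hold microglial RNA. It was 2.29 with cells weighted equally and 2.55 with the reduced totals. NS over ND4w was 4.37 in those barcodes, 3.27 with cells weighted equally and 2.90 with NS from both batches. Leaving out barcodes by neutrophil markers and using GC of 200 bases were chosen after seeing the data, as were the left-out names and NS from both batches in T cells. For the 67 named genes, 378 of 402 gaps under 6 alternatives were at least 1.5 and none was under 1, the lowest being 1.07 for Mcoln1 in thinned cells. In thinned cells 179 of the 189 members kept a gap above 1, and the gaps of Bri3, Rap1b and Rac3 were 3.23, 3.10 and 2.23. With cells weighted equally the gap of Bri3, 4.94, was 2.82. No paired analysis was possible because each group is 1 library. Depth limited NR4w and NS batch 2 most.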

Other observations

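The mirror rule's single gene was Dnajb1, a cochaperone of HSP70. It had 81.2, 114 and 115 CPM in NS batch 3, Dep24 and NR4w and 203, 180 and 208 CPM in ND24, ND4w and R4w, and 22.9 CPM in NS batch 2. Without the barcodes carrying neutrophil markers it no longer met the fold, and no gene did.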
